A study of Mus musculus with 6 samples.

Results

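The genes described here, cytokines, chemokines and their receptors, are those of the deposited gene table whose symbols begin with Il, Cxcl, Cxcr, Ccl or Ccr and a digit, or with Tnfsf or Tnfrsf, with Il6st and Ccrn4l left out by the rule. They number 71 of 19571 genes. The rule reads gene symbols and no measured value. By role they comprise 11 interleukins, 22 interleukin receptor chains, 2 genes grouped as antagonists or binding proteins, 5 CXC chemokines, 2 CC chemokines, 5 chemokine receptors, 6 genes of the TNF ligand family and 18 TNF receptor family genes. The mouse annotation holds 172 symbols that the same rule takes, so 101 had no row in the table used here, among them Il6, Il1a, Il1b, Il22, Cxcr3 and 25 of the 27 CC chemokine symbols.

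Cytokines are secreted or membrane-bound proteins by which cells, above all those of the immune system, signal to each other, and chemokines are the small cytokines that direct cell migration. Interleukins act through receptors built from a ligand-specific chain and a shared chain, which mostly signal through JAK kinases and STAT factors. Receptors of the interleukin 1 and 17 families and of the tumour necrosis factor (TNF) superfamily instead lead to NF-kappa B, and chemokine receptors are coupled to G proteins. Embryonic stem cells are kept undifferentiated in culture by one such cytokine, LIF, whose receptor contains the shared chain Il6st.

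The RNA came from E14 mouse embryonic stem cells grown in serum with LIF on gelatin-coated plates. The study set 3 samples labelled Dot1L-/-, made with CRISPR/Cas9, against 3 wild-type (WT) samples, all of them labelled day 14. Dot1l encodes the methyltransferase of lysine 79 on histone H3. The sources used here do not say whether the samples came from 1 clone or several, or from separate cultures, so the error behind each p-value is the spread of these samples, which may be technical.

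Each gene has a mean normalized count over the 6 libraries, a DESeq2 log2 fold change, the standard error (SE) of that change and a p-value, and there are no values per sample. The genotype favoured by a positive fold change is not stated. Positive values are taken here to mean more RNA in Dot1l KO, on the ground that the retrovirus MERVL is described elsewhere as repressed by Dot1l and that genes of the 2-cell-like state it marks are positive; under the opposite sign every direction below would reverse. Dot1l RNA does not settle this, at -0.16 ± 0.25 (SE) with a DESeq2 adjusted p = 0.845 in the authors' deposited table. Levels per genotype were computed from the mean and the fold change under equal group sizes and are called implied levels; they carry no SD. In bulk RNA, fewer cells expressing a gene and less RNA per cell cannot be told apart.

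Stem cell markers were abundant, and most leukocyte markers had no row or a low mean. The 10 embryonic stem cell markers, such as Pou5f1 and Nanog, summed to implied levels of 235974 normalized counts in Dot1l KO and 256173 in WT, and 0 of them passed the DESeq2 test at an adjusted p under 0.05, 1 without adjustment. All 10 had means of at least 5956. At a mean count of 500 or more only 0.923% of all genes rose and 1.99% fell, so 0 of 10 lies near those shares. Of 18 leukocyte markers, 9 had no row, among them Ptprc, Csf1r, Tyrobp and Adgre1. The 9 with a row summed to 3178 in Dot1l KO and 4039 in WT, most of it from Laptm5 and Cd68. Without Laptm5 the sums were 1161 and 1562. Of the 9, 5 lay above 0, and Cd8a alone passed, higher in Dot1l KO; the authors' deposited table gives it a mean of only 6.70 normalized counts.

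The genes that changed between the genotypes all rose in Dot1l KO. At an adjusted p under 0.05 in DESeq2, 13 of the 71 rose and 0 fell; without adjustment 18 were higher and 4 lower. Over all 19564 genes tested, 5.34% were called higher and 1.25% lower, 6.58% in all, and without adjustment 10.6% were higher and 5.55% lower. The 13 are the ligands Il17f, Il34, Cxcl10 and Cxcl11, the interleukin receptor chains Il1r1, Il1rl2, Il1rap, Il4ra, Il6ra and Il22ra1, and the TNF receptors Tnfrsf8, Tnfrsf13b and Tnfrsf19. Among the 71, the share called higher was 18.3%, and the median log2 fold change was 0.40 where that of all genes tested was -0.02. Of the 71, 51 lay above 0 and 20 below.

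**Figure D1:**
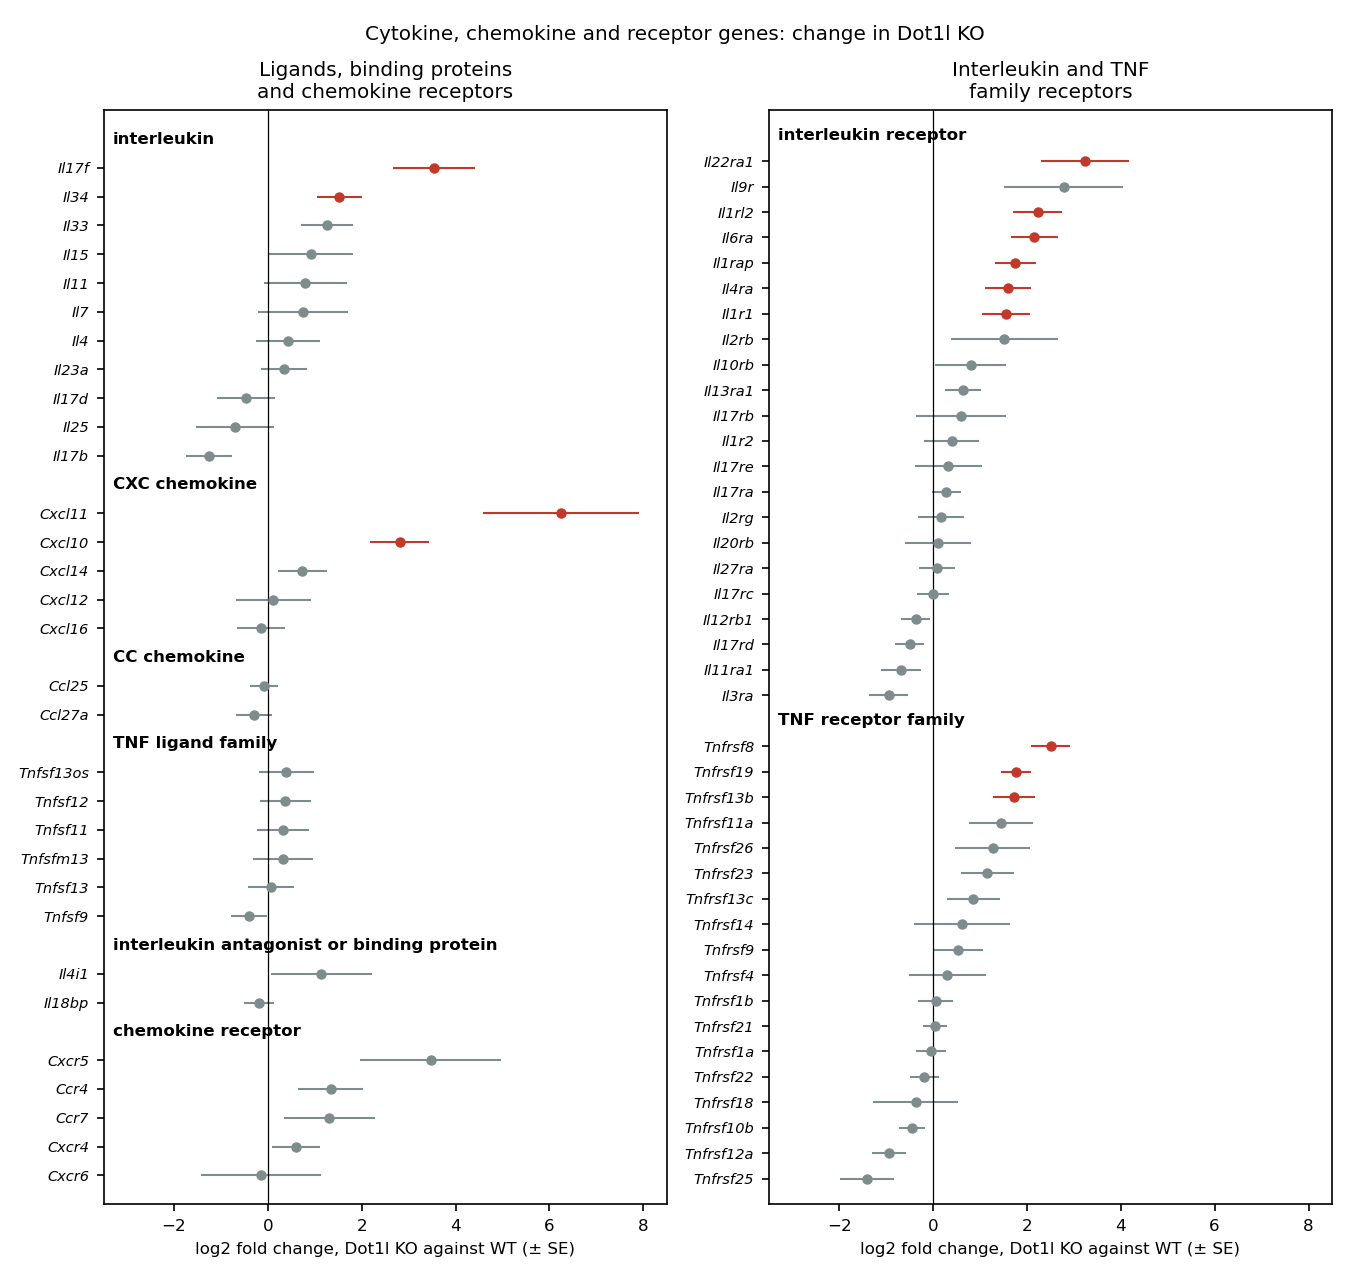
Log2 fold change of Dot1l KO against WT for each of the 71 genes, grouped by role, with bars showing 1 SE; red marks an adjusted p under 0.05 in DESeq2 and grey the rest. The 13 red points all lie above 0, from 1.52 for Il34 to the fitted 6.24 for Cxcl11.

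Rises across the whole table lay mostly among genes with a mean count under 500, and the 71 are weakly expressed, with a median mean count of 50.1 against 278 over all genes. Below a mean of 50 normalized counts, 5 of 35 rose (14.3%) and 0 fell, where 8.09% of all genes in that range rose and 0.143% fell. From 50 to under 500, 8 of 30 rose (26.7%) and 0 fell, beside 9.29% and 1.40% of all genes. At 500 or more, 0 of 6 rose or fell, beside 0.923% and 1.99%. No test of these shares against each other was made. With fold changes centred within 20 bins of mean count, Il1r1, Il4ra, Il22ra1 and Il34 were no longer called, the other 9 were, and Il17b was called lower.

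A gene that has a row only through its Dot1l KO reads had to differ in level between the groups, though not by enough to be called. The lowest mean in the table was 4.79, and 6 of the 71 had an implied WT level below it and a Dot1l KO level above it (Il22ra1, Cxcl11, Il4i1, Cxcr5, Il9r and Il2rb), while 0 had the reverse. Of the 6, 2 were called, Il22ra1 and Cxcl11. Of the other 65, 11 rose (16.9%) and 0 fell, beside 3.84% called higher among all genes with both levels at or above that mean.

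**Figure D2:**
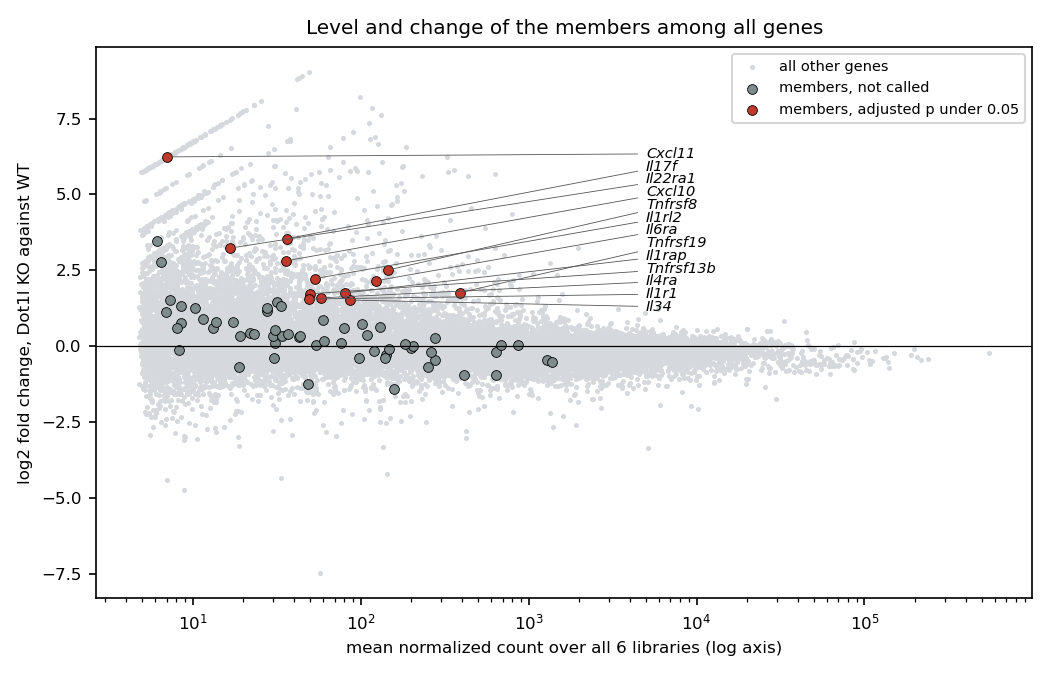
Log2 fold change against mean normalized count over the 6 libraries on a log axis; small grey points are all other genes, large grey points the 58 genes of the set that were not called, red points the 13 that rose. The red points lie between mean counts of 7.06 and 388, and none of the 6 genes with a mean of 500 or more is red; Cxcl11 sits on the line of genes without WT reads, so its plotted fold is a fitted value and no bound.

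Among the interleukins, Il17f and Il34 rose. Il17f encodes an inflammatory cytokine of T helper cells that induces chemokines in epithelium. Its gene lies on chromosome 1 (mm10, 20777146 to 20790617), and its implied level was 66.9 normalized counts in Dot1l KO and 5.74 in WT. The authors' deposited table gives it 3.54 ± 0.88 (log2 fold change and SE, as in all such pairs below) with DESeq2 adjusted p = 0.00223, an 11.6-fold difference with a 95% interval of 3.51 to 38.6. No other tested gene of its family passed. Il17b had -1.26 ± 0.48 with a DESeq2 adjusted p = 0.104, Il25 -0.70 ± 0.83 and Il17d, the most abundant interleukin of the table per length, -0.46 ± 0.61, all in the authors' deposited table.

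Il34 encodes the second ligand of the CSF1 receptor, which maintains microglia and skin macrophages. The gene lies on chromosome 8 (mm10, 110741829 to 110805924), with implied levels of 128.3 in Dot1l KO and 44.7 in WT. The authors' deposited table gives 1.52 ± 0.48 with DESeq2 adjusted p = 0.0265, or 2.87-fold with a 95% interval of 1.504 to 5.48. Csf1r, the receptor, had no row, and the first ligand, Csf1, had 1.37 ± 0.74 with a DESeq2 adjusted p = 0.352 in the authors' deposited table.

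None of the remaining interleukins passed. Il33, an alarmin held in the nucleus, came nearest among the positive ones at 1.26 ± 0.55 with a DESeq2 adjusted p = 0.183 in the authors' deposited table. Il15, which sustains natural killer cells, Il11, a ligand of the gp130 group, and Il7, which supports lymphoid precursors, had 0.91, 0.80 and 0.75 in the authors' deposited table, each with an SE near its own size. Il4 and Il23a, the latter a subunit of interleukin 23, had 0.43 ± 0.68 and 0.35 ± 0.49 in the authors' deposited table. Their mean counts lay between 8.46 and 43.5, where the errors are wide, so these values do not show that the genes were unchanged.

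Among the interferon-induced CXC chemokines Cxcl10 rose, as did its neighbour Cxcl11 on chromosome 5. Cxcl11 has a row only through its Dot1l KO reads, so it had to differ between the groups. Cxcl10 and Cxcl11 attract activated T cells through the receptor Cxcr3. Cxcl10 (mm10, 92346638 to 92348889) had implied levels of 62.7 in Dot1l KO and 8.93 in WT. The authors' deposited table gives it 2.81 ± 0.63 with DESeq2 adjusted p = 0.000366, a 7.02-fold difference with a 95% interval of 3.002 to 16.4.

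Cxcl11 (mm10, 92359544 to 92365485) lies 10654 bases away and is annotated as a polymorphic pseudogene. Its implied WT level was that of no reads, and its Dot1l KO level was 13.9 normalized counts, so it was at least 13.9-fold higher with WT set to a floor of 3 reads over the group. The bound leaves out the error of the Dot1l KO level. The authors' deposited table gives it a mean of 7.06 and DESeq2 adjusted p = 0.00542. Of its exon bases, 41.7% overlap the exons of a gene on the opposite strand, and the sources used here do not say how strand was treated. Art3, whose span covers both chemokine genes, had 1.08 ± 0.85 with a DESeq2 adjusted p = 0.606 in the authors' deposited table.

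None of the other chemokines passed. Cxcl14, found in epithelium, had 0.74 ± 0.51, Cxcl12, the ligand of Cxcr4, 0.11 ± 0.80, and the membrane-bound Cxcl16 -0.15 ± 0.52 in the authors' deposited table. The CC chemokines Ccl25, of thymus and gut, and Ccl27a, of skin, had -0.08 ± 0.30 and -0.30 ± 0.39 in the authors' deposited table. Ccl27a belongs to a group of near-identical copies, as does Il11ra1, so their single values are uncertain.

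The 250 bases upstream of 3 of the genes that rose are shown, since these hold the upstream matches to the NF-kappa B consensus, the motif on which the interleukin 1 and TNF receptors converge. RefSeq promoters (GRCm38.p6, the assembly of mm10; 250 bases before to 50 after each start) were matched by symbol for 50 of the 71 genes and 11 of the 13 that rose, Cxcl11 and Il34 having none. Both strands were searched for TATAAA, for TTCNNNGAA (a STAT motif), for GAAA followed after any 2 bases by GAAA (an interferon response motif, added after the other 3 were chosen) and for the NF-kappa B consensus. The sequences of Cxcl10 (chr5:92348890-92349139, minus strand), Tnfrsf8 (chr4:145315165-145315414, minus strand) and the downstream one of the Il1r1 starts (chr1:40266336-40266585, plus strand) run 5′ to 3′ in the direction of the gene. Capitals mark NF-kappa B matches, and in Cxcl10 the first block in capitals is the interferon response motif; none of the matches overlap.
Cxcl10: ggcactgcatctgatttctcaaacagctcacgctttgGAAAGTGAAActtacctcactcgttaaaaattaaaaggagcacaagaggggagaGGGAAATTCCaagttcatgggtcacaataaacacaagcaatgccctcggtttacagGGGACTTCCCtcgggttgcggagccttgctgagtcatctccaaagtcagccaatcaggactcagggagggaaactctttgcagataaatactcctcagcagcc
Tnfrsf8: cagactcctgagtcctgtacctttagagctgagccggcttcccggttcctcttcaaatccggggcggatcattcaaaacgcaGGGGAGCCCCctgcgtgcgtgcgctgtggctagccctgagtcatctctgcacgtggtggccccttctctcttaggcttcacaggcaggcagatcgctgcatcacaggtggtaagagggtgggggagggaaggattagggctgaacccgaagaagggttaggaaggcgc
Il1r1: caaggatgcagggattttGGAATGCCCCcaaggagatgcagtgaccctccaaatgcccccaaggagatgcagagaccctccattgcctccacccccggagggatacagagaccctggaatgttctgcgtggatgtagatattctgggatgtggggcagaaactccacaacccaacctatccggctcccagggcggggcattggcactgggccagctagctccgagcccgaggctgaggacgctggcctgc

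The genes that rose had 13 promoters, from 11 genes. Over both the upstream and downstream part of the window, the NF-kappa B consensus matched 4 of these 13 (Cxcl10, Tnfrsf8, Il1r1 and Il4ra). It matched 2 of the 48 promoters of those not called, and 4.51% of all 32851 promoters. The interferon response motif matched 2 of the 13, in Cxcl10 and Il1rap, 4 of the 48, and 3.44% of all promoters. The STAT motif matched 1 of the 13 and 9 of the 48, with 8.30% of all promoters, and TATAAA 2 of the 13 and 6 of the 48, with 13.6% of all promoters. Among promoters of genes in the table the shares were 5.21% for NF-kappa B, 2.79% for the interferon response motif, 6.69% for the STAT motif and 7.67% for TATAAA. Among promoters of every gene called higher they were 6.73%, 3.99%, 5.82% and 11.3% in the same order. The median number of CG dinucleotides was 13 in promoters of the genes that rose, 7 in those not called and 7 in all promoters. It was 18 in promoters of all genes of the table and 9 in those of every gene called higher. Such matches describe letters only, and a missing match says nothing about a factor.

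Interleukin receptor chains held 6 of the 13 rises, out of 22 tested, with 0 falls. That is 27.3% higher, where 5.34% of all genes were called higher and 1.25% lower. In the interleukin 1 receptor family 3 of the 4 tested genes rose. Il1r1, which binds interleukin 1, and Il1rl2, which binds the interleukin 36 cytokines, lie 7352 bases apart on chromosome 1 (mm10, 40225080 to 40317257 and 40324610 to 40367562). Both signal only after pairing with the accessory chain Il1rap, encoded on chromosome 16 (mm10, 26581704 to 26730117).

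Implied levels of Il1r1 were 73.1 in Dot1l KO and 24.9 in WT, and the authors' deposited table gives 1.56 ± 0.51 with DESeq2 adjusted p = 0.0407. For Il1rl2 they were 87.7 and 18.7, with 2.23 ± 0.51 and DESeq2 adjusted p = 0.000708 in the authors' deposited table. Il1rap had 123.9 and 36.8 and, in the authors' deposited table, 1.75 ± 0.44 with DESeq2 adjusted p = 0.00245. The decoy receptor Il1r2, on the other side of Il1r1, had 0.40 ± 0.59 with a DESeq2 adjusted p = 0.831 in the authors' deposited table. Sigirr, an inhibitory receptor of the same family outside the naming rule, had -0.93 ± 0.33 with a DESeq2 adjusted p = 0.0692 in the authors' deposited table, so it did not pass.

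Il6ra, the ligand-binding chain for interleukin 6, rose while its signalling partner did not. The gene lies on chromosome 3 (mm10, 89864059 to 89913196), with implied levels of 202.5 in Dot1l KO and 45.3 in WT. In the authors' deposited table it had 2.16 ± 0.51 with DESeq2 adjusted p = 0.00101, a 4.47-fold difference with a 95% interval of 2.23 to 8.94. Il6st had a mean of 2994 and -0.34 ± 0.36, with a DESeq2 adjusted p = 0.738, in the authors' deposited table. Il11ra1 and Il27ra, ligand-specific chains that also pair with Il6st, had -0.69 ± 0.43 and 0.08 ± 0.38 in the authors' deposited table. Lifr, the chain that carries the LIF signal in these cells, had 0.17 ± 0.28 in the authors' deposited table.

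Il22ra1 and Il4ra also rose. Il22ra1, the epithelial chain for interleukin 22, lies on chromosome 4 (mm10, 135728172 to 135752140). Its implied levels were low, 30.2 in Dot1l KO and 3.22 in WT, and the authors' deposited table gives 3.23 ± 0.94 with DESeq2 adjusted p = 0.0132. Il22ra1 too has a row only through its Dot1l KO reads. Its partner chain is Il10rb. Il10rb had 0.80 ± 0.76 with a DESeq2 adjusted p = 0.691 in the authors' deposited table. Il4ra, the chain shared by the receptors for interleukins 4 and 13, lies on chromosome 7 (mm10, 125552120 to 125579474), with implied levels of 87.4 and 28.9. The authors' deposited table gives it 1.59 ± 0.49 with DESeq2 adjusted p = 0.0210. Its partners Il13ra1 and Il2rg, the common gamma chain, had 0.63 ± 0.38 and 0.16 ± 0.49 in the authors' deposited table, and neither passed.

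The other interleukin receptor chains did not pass. The 5 interleukin 17 receptor genes ran from -0.50 ± 0.31 (DESeq2 adjusted p = 0.441) for Il17rd to 0.59 ± 0.95 for Il17rb in the authors' deposited table. Il17rd, also known as an inhibitor of FGF signalling, was the most abundant gene of the set by mean count, at 1384. Il17ra, the common chain that Il17f uses, had 0.28 ± 0.31 and its partner Il17rc -0.01 ± 0.34 in the authors' deposited table. Il3ra, a chain of the interleukin 3 receptor, was the lowest of the 22 at -0.95 ± 0.42 with a DESeq2 adjusted p = 0.191 in the authors' deposited table. Il12rb1 and Il20rb had -0.38 ± 0.32 and 0.11 ± 0.71 in the authors' deposited table. Il9r and Il2rb, of lymphocytes, had means of 6.47 and 7.35 and changes of 2.79 ± 1.27 and 1.51 ± 1.14 in the authors' deposited table, and Il17re had 0.33 ± 0.72.

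Neither of the genes grouped as antagonists or binding proteins passed. Il18bp, which neutralises interleukin 18, had a mean of 263.8 and -0.20 ± 0.32 in the authors' deposited table. Il4i1, an amino acid oxidase despite its symbol, had a mean of 6.91 and 1.14 ± 1.07 in the authors' deposited table, and 86.3% of its exon bases overlap other genes.

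None of the 5 chemokine receptors passed the DESeq2 test, where 5.34% of all genes were called higher and 1.25% lower. Without adjustment 1 of the 5 was higher, beside 10.6% of all genes. So few genes do not set this role apart from the whole table. Cxcr4, the receptor that guides germ cell and blood stem cell migration, was the most abundant, at 95.3 in Dot1l KO and 62.9 in WT, with 0.60 ± 0.50 in the authors' deposited table. Cxcr5, which brings B cells into follicles, had a mean of 6.10 and 3.47 ± 1.502 with a DESeq2 adjusted p = 0.180 in the authors' deposited table. Ccr4 and Ccr7, of T cells and dendritic cells, had 1.33 ± 0.68 and 1.31 ± 0.97 in the authors' deposited table, and Cxcr6 had -0.14 ± 1.28. Their errors are wide enough that changes of several fold in either genotype were not detectable for Cxcr6 or Ccr7.

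**Figure D3:**
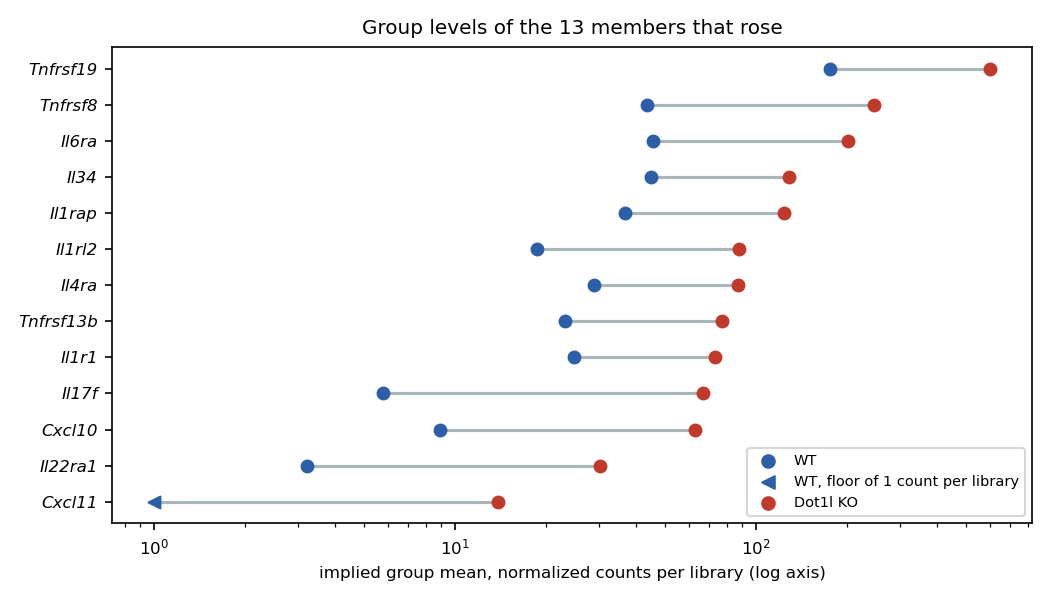
Implied mean level in WT (blue) and Dot1l KO (red) of each of the 13 genes that rose, in normalized counts per library on a log axis; the triangle places Cxcl11 in WT at the floor of 1 count per library. Dot1l KO levels run from 13.9 for Cxcl11 to 600.1 for Tnfrsf19, and only Tnfrsf19 was above 50 in WT.

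In the TNF receptor family 3 of 18 genes rose (16.7%, beside 5.34% of all genes) and 0 fell (1.25% of all genes). Tnfrsf8, or CD30, a receptor of activated lymphocytes that also marks embryonal carcinoma cells, had the smallest p of the set. It lies on chromosome 4 (mm10, 145267137 to 145315164), with implied levels of 247.2 in Dot1l KO and 43.4 in WT. The authors' deposited table gives 2.51 ± 0.41 with DESeq2 adjusted p = 2.23e-07, a 5.69-fold difference with a 95% interval of 3.24 to 9.99. Tnfrsf1b, a TNF receptor gene 20266 bases away, had 0.05 ± 0.36 with a DESeq2 adjusted p = 0.973 in the authors' deposited table. Implied levels of Tnfrsf1b were 701 and 676. The difference between these neighbours was not tested.

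Tnfrsf19, or TROY, a receptor of neural and hair follicle progenitors that responds to Wnt signals, was the most abundant of the genes that rose. It lies on chromosome 14 (mm10, 60963875 to 61046490), with implied levels of 600.1 in Dot1l KO and 176.7 in WT. In the authors' deposited table it had 1.76 ± 0.32 with DESeq2 adjusted p = 3.02e-06, or 3.40-fold with a 95% interval of 2.21 to 5.22. Tnfrsf13b, or TACI, a receptor of B cells, lies on chromosome 11 (mm10, 61126755 to 61149372) and had implied levels of 77.0 and 23.2. The authors' deposited table gives it 1.73 ± 0.45 with DESeq2 adjusted p = 0.00440. Tnfrsf13c, the BAFF receptor that accompanies it on B cells, had 0.86 ± 0.56 with a DESeq2 adjusted p = 0.488 in the authors' deposited table.

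None of the TNF receptors most abundant per length was called. Per kilobase of exon, Tnfrsf12a (Fn14, the receptor for TWEAK) stood highest of all 71 at 330.2 normalized counts, followed by Tnfrsf10b (the TRAIL death receptor) at 235.1 and Tnfrsf21 (death receptor 6) at 209.4, with Il17d between these last at 216.3. As differences, Tnfrsf12a had -0.95 ± 0.36 with a DESeq2 adjusted p = 0.0968 and Tnfrsf10b -0.45 ± 0.27 with a DESeq2 adjusted p = 0.441 in the authors' deposited table. Tnfrsf21 and Tnfrsf1a, a TNF receptor with a death domain, had 0.04 ± 0.26 and -0.04 ± 0.32 in the authors' deposited table. The lowest fold change of the set belonged to Tnfrsf25 (death receptor 3), at -1.40 ± 0.58 with a DESeq2 adjusted p = 0.149 in the authors' deposited table.

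Tnfrsf22 and Tnfrsf23, decoy receptors for TRAIL, and Tnfrsf26 form a cluster on chromosome 7, and none of them passed. At mean counts of 638.8, 27.9 and 10.3 they had -0.19 ± 0.30, 1.15 ± 0.57 and 1.27 ± 0.81 in the authors' deposited table. The receptors of lymphocyte costimulation Tnfrsf9, Tnfrsf14, Tnfrsf4 and Tnfrsf18 had 0.53, 0.61, 0.30 and -0.38 with errors of 0.54 to 1.02 in the authors' deposited table. Tnfrsf11a (RANK), which drives osteoclast formation, had 1.45 ± 0.68 with a DESeq2 adjusted p = 0.236 in the authors' deposited table.

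TNF family ligands ran from -0.40 ± 0.38 for Tnfsf9 to 0.40 ± 0.59 for the antisense transcript Tnfsf13os in the authors' deposited table, and 0 of 6 passed, also without adjustment in DESeq2. Over all genes 6.58% were called in either direction, and without adjustment 10.6% were higher and 5.55% lower. So few genes do not set this family apart from the whole table. Tnfsf12 (TWEAK), Tnfsf13 (APRIL) and Tnfsfm13, the transcript that runs through both, had 0.37 ± 0.54, 0.06 ± 0.49 and 0.32 ± 0.63 in the authors' deposited table. Tnfsfm13 shares exons with both Tnfsf12 and Tnfsf13, and the antisense transcript overlaps Tnfsfm13 and Tnfsf13 but not Tnfsf12, so these are not independent measurements. Tnfsf11 (RANK ligand) had 0.32 ± 0.56 in the authors' deposited table.

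Most of the receptors and ligands that rose had no partner that rose. Ligands of the receptors that rose include Il6, Il22, Il1a, Il1b and Tnfsf8, which had no row, and Il4 and Tnfsf13, which had a row and did not pass. The receptors of the ligands that rose include Cxcr3 and Csf1r, which had no row, and Il17ra and Il17rc, which did not pass. The receptor chains Il1r1 and Il1rl2 and their shared chain Il1rap are a case in which the parts of a complex rose.

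Within 100 kb of the 13 lie 41 other genes of the table, of which 3 rose (7.32%, beside 5.34% of all genes) and 1 fell, with a median log2 fold change of 0.05. Myom3, beside Il22ra1, was the nearest of the 3 at 7574 bases and had 1.75 ± 0.42 with DESeq2 adjusted p = 0.00110 in the authors' deposited table. Exons of other annotated genes overlap those of 28 of the 71 and 6 of the 13, in 5 of those 6 over less than 10% of the exon bases. Among the 43 without any overlap 7 rose (16.3%) and 0 fell.

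Signalling genes downstream of these receptors were mostly not called. Of 28 JAK-STAT genes, all with a row, 0 rose and 2 fell in DESeq2 (0 and 5 without adjustment), where 5.34% of all genes rose and 1.25% fell, and their median was -0.19. The 2 were Jak3, the kinase that binds the common gamma chain, at -0.77 ± 0.25 with DESeq2 adjusted p = 0.0347, and Cish, a STAT5-induced feedback inhibitor, at -1.13 ± 0.38 with DESeq2 adjusted p = 0.0429; both values come from the authors' deposited table. Stat3, through which LIF acts, had -0.08 ± 0.28 and Socs3, its feedback inhibitor, -0.38 ± 0.34 in the authors' deposited table.

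Of 42 genes leading from the interleukin 1 and TNF receptors to NF-kappa B, 0 rose and 1 fell in DESeq2 (2 and 3 without adjustment). Over all genes 5.34% rose and 1.25% fell. The list's median log2 fold change was -0.03. The median mean count was 718 in this list and 1427 in the JAK-STAT list. At a mean count of 500 or more, 0.923% of all genes rose and 1.99% fell. Tnip1, which restrains NF-kappa B, fell by 0.94 ± 0.25 on the log2 scale with DESeq2 adjusted p = 0.00503 in the authors' deposited table. Casp8, a caspase recruited by death receptors, had 1.52 ± 0.52 with a DESeq2 adjusted p = 0.0516 in the authors' deposited table. Of 18 chemokine receptor signalling genes 1 rose (5.56%, beside 5.34% of all genes) and 1 fell (3 and 1 without adjustment), with a median of 0.16. These encode partners in activating Rac. The authors' deposited table gives Dock2 at 1.23 ± 0.38 and Elmo1 at -1.30 ± 0.41, with DESeq2 adjusted p = 0.0244 and 0.0319.

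Of 67 related ligands and receptors outside the naming rule 47 had a row; 4 rose, 8.51% of them beside 5.34% of all genes, and 0 fell, with a median of 0.11. Csf3r, the receptor of granulocyte growth, had 2.65 ± 0.69 with DESeq2 adjusted p = 0.00422, and Lepr, the leptin receptor, 2.19 ± 0.55 with DESeq2 adjusted p = 0.00260, in the authors' deposited table. Flt3, a receptor of blood progenitors, had 3.16 ± 1.07 with DESeq2 adjusted p = 0.0494, and Cmklr1, the chemerin receptor, 0.71 ± 0.23 with DESeq2 adjusted p = 0.0426, in the authors' deposited table. None of the 5 interferon receptor genes passed; Ifnar1 had 0.04 ± 0.22 and Ifngr1 0.12 ± 0.33 in the authors' deposited table.

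**Figure D4:**
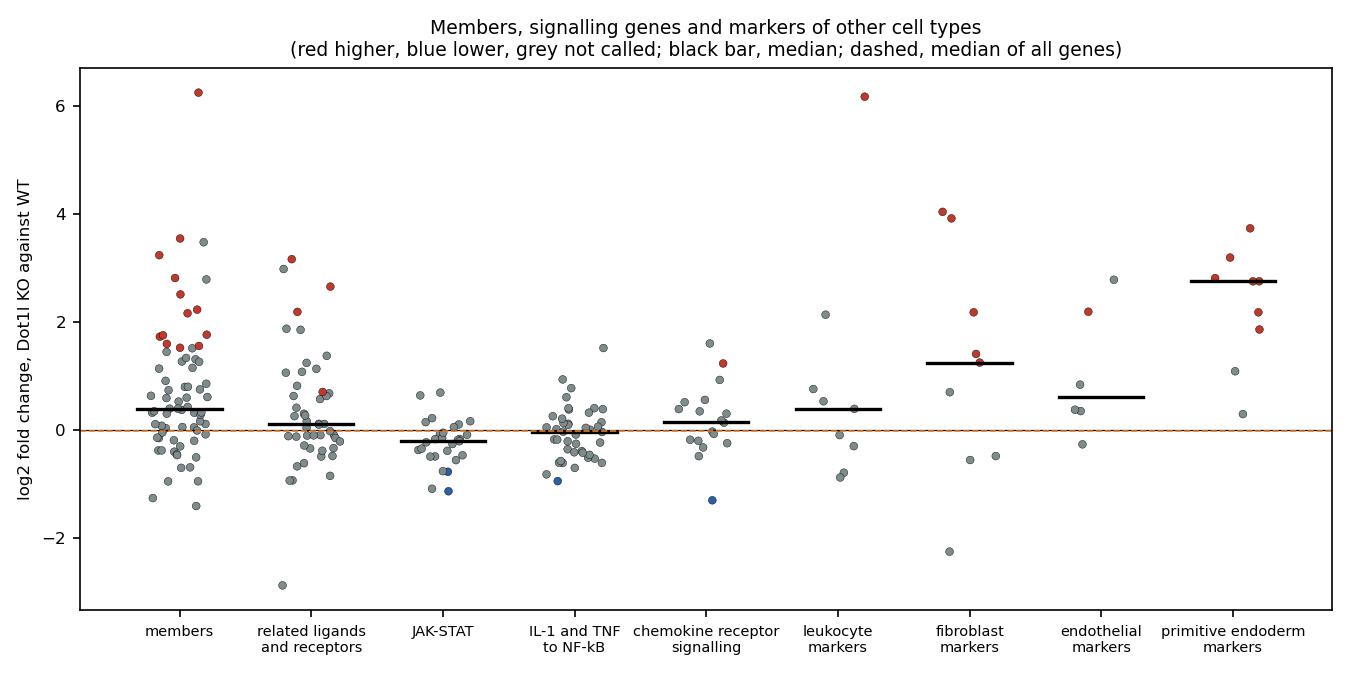
Log2 fold change of the 71 genes, of 4 lists of related and downstream genes and of 4 lists of markers of other cell types; each point is a gene (red higher, blue lower, grey not called), the black bar is the list's median and the dashed line the median of all genes. The medians of the JAK-STAT and NF-kappa B lists lie at -0.19 and -0.03, and that of the primitive endoderm markers at 2.75, the highest of the lists drawn.

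Markers of other cell types differed from list to list. Over all genes tested, 5.34% were called higher and 1.25% lower. Of 9 primitive endoderm markers with a row 7 rose and 0 fell, and their summed implied level was 3584 in Dot1l KO and 703 in WT. Without Col4a1, the most abundant, the sums were 1233 and 354. Of 9 fibroblast markers 5 rose and 0 fell. Their summed levels were lower in Dot1l KO, at 35510 beside 49176 in WT, mostly from Fn1. Without Fn1 they were 8774 and 9967, mostly from Vim at 6382 and 8900. Neither Fn1 nor Vim was called. Of the 9 fibroblast markers 6 lay above 0 and 3 below, with a median of 1.25. Pdgfra, which rose, is counted in the endoderm and in the fibroblast list. Of 6 endothelial markers 1 rose, Kdr, with summed levels of 4920 and 3982, mostly from Pecam1, which was not called. Without Pecam1 they were 1274 and 1125. Of 10 markers of 2-cell-like cells 8 rose, with a median of 5.60 and summed levels of 1972 and 34.03. Genes of this state served to set the sign of every fold change, so their direction is assumed and not a result. Dcn, Lum, Postn, Emcn and Foxa2 had no row. The part of these cell types in the rises of the 13 genes was not tested. Nor was that of leukocytes, whose 9 markers with a row had a median of 0.39, with 5 above 0, 1 called higher and 0 lower.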

How the data were processed

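RNA of 3 Dot1l KO and 3 WT samples was measured. HISAT2 2.1.0, featureCounts 2.0.0, DESeq2 and the build mm10 are named in the submitters' processing notes; the sources used here do not give DESeq2's version, strand, multi-mapping, filters or formula. Per the file headers, the deposited values are a mean signal (counts divided by size factors, averaged over libraries), a log2 fold change with its error, a Wald score, and a p-value with its adjusted p-value. The score equalled the fold change over its error, and recomputing the Benjamini-Hochberg adjustment gave the deposited values. There were 7 genes without a p. Library depths are unknown.

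Because the table holds no values per sample, edgeR, planned for counts, could not be used, and all calls are the authors' DESeq2 calls at an adjusted p under 0.05. Members, roles and lists were chosen with earlier results of these data known. The rule for naming took every member, and of other lists the genes past the threshold and the 2 with the smallest p; Stat3, Socs3, Lifr, Csf1, Sigirr, the markers, Ifnar1, Ifngr1, Art3 and Myom3 were named after their values were seen, as were the partner and neighbour comparisons. Implied levels used equal group sizes; a level under 0.25 was taken as no reads and set to 3 reads over the group, 1 normalized count per library. Loci and exon lengths are those of GENCODE M21, in which every symbol matched, and promoters those of RefSeq. Scripts ran in Python 3.11.15 with pandas 2.3.3, and the recalculations were tested on simulated data.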

Additional observations from a re-analysis of the deposited data

How the results depend on the processing

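The stricter thresholds and the filters reuse the same fold changes, so only the centrings could alter a direction. They reversed none of the 13 rises. The count of 13 became 9 at an adjusted p under 0.01, where 3.38% of all genes were called higher. It stayed 13 with a log2 fold change of at least 1 (5.22% of all genes) or with centring on the median of all genes (5.48%). At a mean count of at least 50, which left 8 of the 13 to test, it was 8 of 36 (3.89% of all genes so tested). It was 2 with Bonferroni adjustment (Tnfrsf8 and Tnfrsf19), beside 1.41% of all genes. Without exon overlap, an alternative chosen after seeing the data, it was 7 of 43, beside 5.31% of the genes left. Centred within 20 bins of mean count, 9 of the 13 were still called (not Il1r1, Il22ra1, Il4ra and Il34), Il17b was called lower at -1.58, and the median of the 71 went from 0.40 to 0.16, while the genes called over the table went from 1044 higher and 244 lower to 752 and 159. That centring reversed 9 values that did not pass either way: Tnfrsf4 -0.016, Il17re -0.066, Cxcl12 -0.26, Il20rb -0.12, Tnfsfm13 -0.051, Tnfsf13 -0.26, Il17rb -0.019, Tnfsf11 -0.051 and Il2rg -0.16; centring on the overall median put Il17rc at 0.012. Related ligands and receptors went from 4 calls to 2 at 0.01 and 0 with Bonferroni. They had 1 call at a mean of at least 50, a filter that removed Csf3r, Flt3 and Lepr from testing. JAK-STAT genes went from 2 to 0 at 0.01, 1 with a log2 fold change of at least 1, 1 centred within bins and 0 with Bonferroni. NF-kappa B genes went from 1 to 0 with a log2 fold change of at least 1, 2 centred on the median, 0 centred within bins and 0 with Bonferroni. Chemokine receptor signalling genes went from 2 to 0 at 0.01, centred within bins and with Bonferroni. These counts are of DESeq2 calls, and the cause of each change was not tested beyond the stricter rule itself. Taking a level under 0.5 as no reads left Cxcl11 as the 1 gene so treated. No paired analysis was possible because the table carries no values per sample; leaving out replicates could not be run for the same reason, and TE copies near these genes were not counted because their names carry no genome position.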
